A study of Danio rerio with 23 samples.

Results

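The Hox cluster genes encode homeodomain transcription factors that give cells along the head-to-tail axis their regional identity. They were taken here as every gene of the deposited tables whose name begins with hox, a cluster letter from a to d and a number, which gave 48 genes of 31743. Zebrafish carry 7 Hox clusters with genes in these tables (hoxaa, hoxab, hoxba, hoxbb, hoxca, hoxcb and hoxda), and the number in each name is the paralog group, from 1 to 13. Of the 48 genes, 31 reached a mean of 1 TPM (the authors' length-scaled abundance) in at least 1 of the 8 groups of embryos.

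Within a Hox cluster the genes of low paralog number lie at one end and are in general switched on earlier and further towards the head than those of high number, an order called collinearity. Paralog group 1 genes act in the hindbrain, the middle groups in the caudal hindbrain and trunk, and the last groups in the tail and fins. Posteriorising signals of the gastrula, among them Wnt, FGF and retinoic acid, feed into Hox genes, in part through the caudal factors of the cdx family.

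Fish of the genotype hs:dkk1b/+ or hs:wnt8a/+ were mated to wild-type fish. In these lines a heat-shock promoter drives either dkk1b, a secreted antagonist of Wnt signalling, or wnt8a, a Wnt ligand, in cells throughout the embryo upon heat shock. Transgenic embryos were compared with their wild-type siblings, which were heat shocked in the same way, so no group was free of heat shock. The hs:dkk1b crosses were kept at 37 °C for 60 minutes and the hs:wnt8a crosses at 39 °C for 30 minutes, in tubes of 10 embryos, and all recovered at 29 °C. Each cross was sampled at an early and a late gastrula time, named 5.5 and 7.5 hpf (hours post fertilisation) in the titles and 5 and 7 hpf in another label. There were 3 libraries per group and 2 for transgenic hs:wnt8a embryos at 5.5 hpf. Embryos came from several mating pairs and were pooled as whole embryos, and nothing in the labels says that the libraries of a group were separate clutches. The tests thus weigh differences against the spread of these libraries, part of which may be technical.

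Total counts ran from 13845788 to 20467185 per library (median 16829144). The dkk1b counts in hs:dkk1b embryos were 2292 to 3952 CPM (counts scaled to library size) at 5.5 hpf. At 7.5 hpf they were 19063, 2329 and 3500 CPM in replicates 1 to 3, so replicate 1 stood far above the rest. Their siblings had 17.3 to 55.2 CPM, and the wnt8a row changed in hs:wnt8a embryos was 2664 to 4218 CPM there. That row was also present in the siblings of hs:wnt8a, at 392 to 721 CPM at 5.5 hpf and 2.33 to 180 CPM at 7.5 hpf. In the siblings of hs:dkk1b the same row was far lower at 5.5 hpf, at 5.06 to 7.62 CPM, and was 4.17 to 6.31 CPM at 7.5 hpf. The source of these reads in the siblings of hs:wnt8a was not tested. All markers of ectoderm, mesoderm, organizer, endoderm, enveloping layer, yolk syncytial layer and germ cells had counts in all libraries, as did those of maternal transcripts and the heat shock response. Some libraries stood apart. Both replicate 2 libraries of the hs:dkk1b cross at 5.5 hpf had nanog, a maternal and early zygotic factor, at 78.5 CPM in siblings and 72.0 CPM in transgenic embryos, where the remaining libraries of those groups had 22.9 to 26.1 CPM. Both replicate 1 libraries of that cross at 7.5 hpf had the heat shock gene hsp70l at 1228 CPM in siblings and 2654 CPM in transgenic embryos, where the other 4 had 40.7 to 78.0 CPM. In the hs:wnt8a cross the sibling replicate 2 library at 5.5 hpf had the germ cell markers at a sum of 161 CPM, against 281 and 289 CPM in its group, and a Hox sum of 25.6 TPM, against 11.1 and 10.4 TPM. Sibling replicate 1 at 7.5 hpf of that cross had the organizer markers at 756 CPM, against 365 and 378 CPM in its group. The chi-square of counts per degree of freedom was 29.1 and 30.0 for pairs with the first library and 44.2 and 42.8 for pairs with the second, against 2.88 and 3.30 for the other pair of each group. Transgenic replicate 1 of the hs:wnt8a cross at 7.5 hpf also had high organizer markers, at 912 CPM against 549 and 461 CPM in its group. The chi-square of its pairs was 28.85 and 34.45, against 13.08 for the other pair.

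Hox transcripts were scarce at 5.5 hpf and abundant at 7.5 hpf. In siblings of hs:dkk1b the summed Hox level was 88.5, 8.33 and 70.0 TPM in replicates 1 to 3 at 5.5 hpf, and 485, 332 and 507 TPM at 7.5 hpf. In siblings of hs:wnt8a it was 11.1, 25.6 and 10.4 TPM at 5.5 hpf, and 309, 368 and 381 TPM at 7.5 hpf. The late libraries lay above all early ones in both crosses, and the early siblings of hs:dkk1b were the most uneven group. The number of genes with a group mean of at least 1 TPM went from 7 to 29 in siblings of hs:dkk1b and from 2 to 25 in siblings of hs:wnt8a. The number at 10 TPM or more went from 1 to 11 and from 0 to 7.

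**Figure D1:**
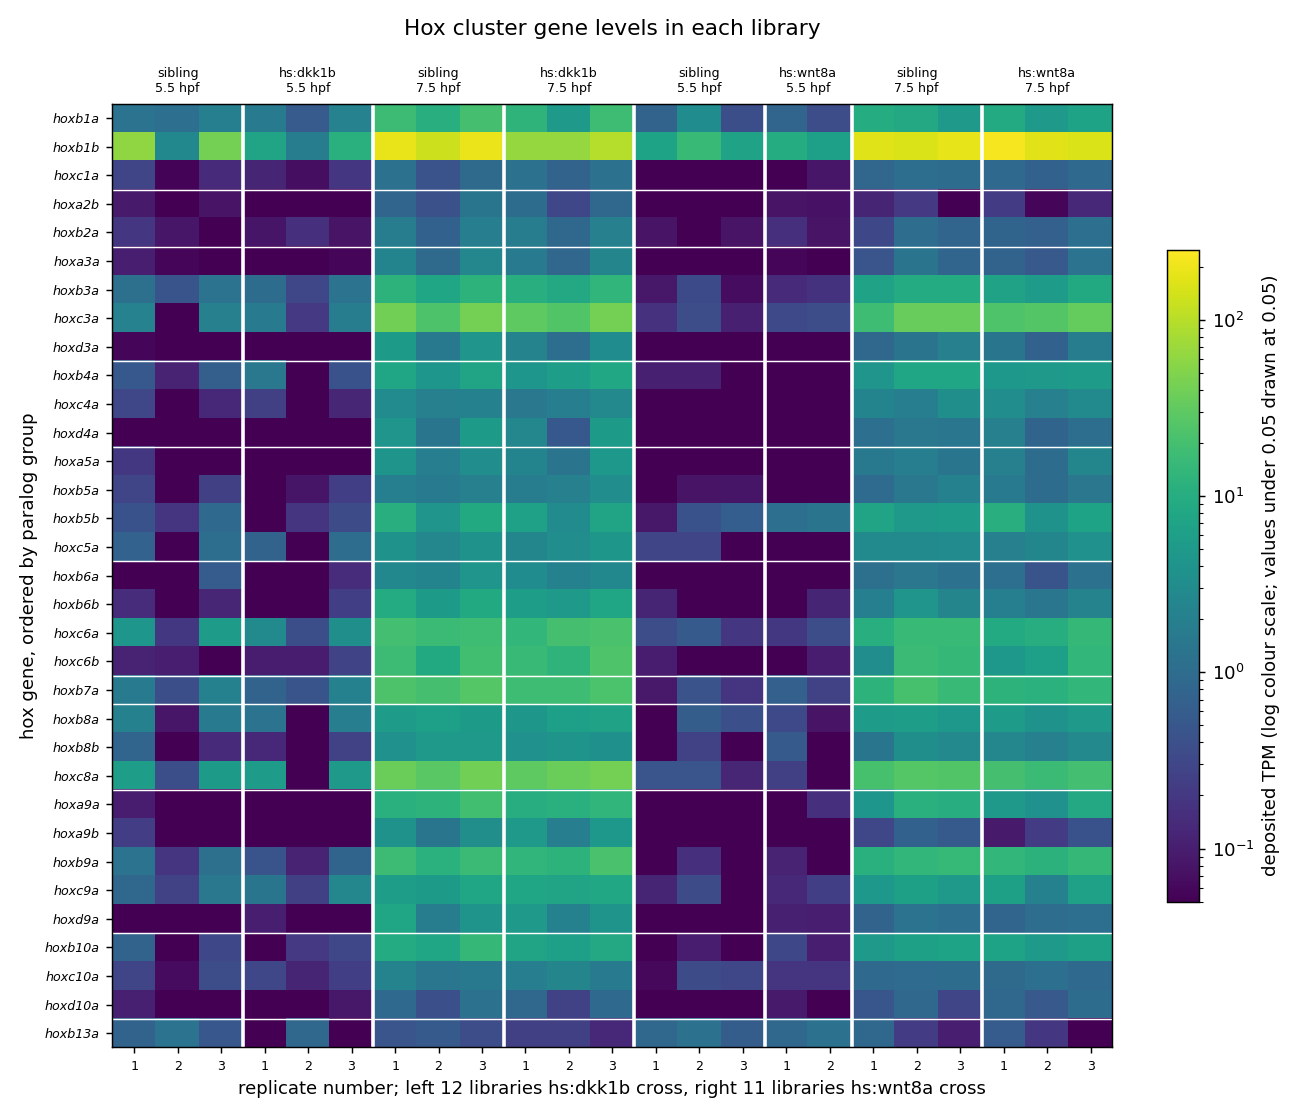
Deposited TPM, on a log colour scale, of the 33 Hox genes that were tested or reached 1 TPM (rows, ordered by paralog group) in each of the 23 libraries (columns, by cross, genotype and time). The late libraries are bright for most rows, hoxb1b of paralog group 1 is the brightest row, and the replicate 2 libraries of the hs:dkk1b cross at 5.5 hpf are dark, with a summed Hox level of 8.33 TPM in siblings and 6.97 TPM in transgenic embryos.

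The change between the times was tested with edgeR's quasi-likelihood test in a fit of all 8 groups, with Benjamini-Hochberg adjustment over the 19504 genes tested. Of the 48 Hox genes, 32 had enough counts to be tested. All 32 rose in siblings of hs:dkk1b, where 15.6% of all genes rose. Of the 32 genes, 31 rose in siblings of hs:wnt8a, where 21.8% of all genes did. These 32 genes passed the count filter largely through their level at 7.5 hpf, so the remaining 16 have to be read beside them. None of the 32 fell, while 15.4% and 18.4% of all genes did, though genes kept for their late level could hardly be called lower. Without the count filter 33 and 31 of all 48 Hox genes rose and 0 fell, where 2718 and 3989 of 28320 genes rose. There 4 and 7 of the 48 had a log2 fold change below 0. The late and early libraries did not overlap for 32 of 32 genes in siblings of hs:dkk1b (24.8% of all genes were higher without overlap) and for 31 of 32 in siblings of hs:wnt8a (31.7% of all genes). The median log2 fold change of the 32 Hox genes was 3.85 and 5.59 in the 2 crosses, against 0.04 and 0.04 for all genes. Without the count filter the medians over all 48 Hox genes were 3.55 and 4.17, against 0 and 0 for all genes. Many early values rest on almost no reads: 2 of the 32 genes in siblings of hs:dkk1b and 11 in siblings of hs:wnt8a had 0 counts at 5.5 hpf over all 3 libraries, and a further 10 and 8 had 1 to 3 counts. With such genes held at a floor of 3 counts over the group, the medians of the 32 genes were 3.87 and 4.22. In pooled whole embryos, more cells expressing a gene and more RNA per cell cannot be told apart.

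**Figure D2:**
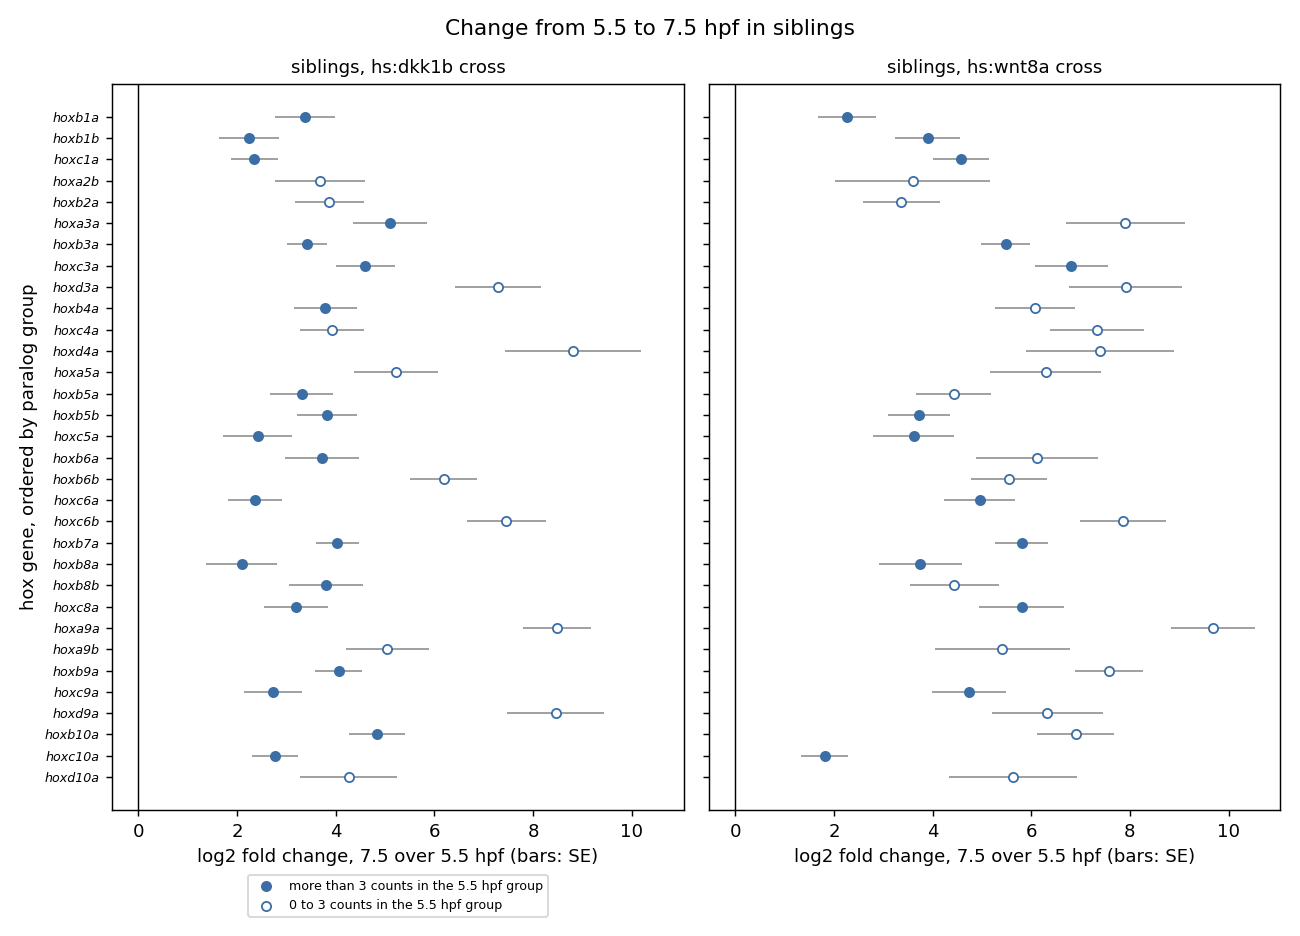
Fitted log2 fold change from 5.5 to 7.5 hpf (points, with standard errors as bars) of the 32 tested Hox genes in siblings of each cross, ordered by paralog group. All points lie right of 0, from 2.09 (hoxb8a) to 8.81 (hoxd4a) in siblings of hs:dkk1b and from 1.81 (hoxc10a) to 9.68 (hoxa9a) in siblings of hs:wnt8a. Open points mark genes with 0 to 3 counts in the early group, whose fitted fold depends on the prior count.

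Paralog group 1 held the most Hox RNA. Its 4 genes summed to 187 ± 38.4 TPM (SD, n = 3) in siblings of hs:dkk1b at 7.5 hpf, 42.5% of all Hox TPM, and to 175 ± 12.6 TPM in siblings of hs:wnt8a, 49.9%. At 5.5 hpf the group made up 59.7% and 70.9% of the far smaller Hox total. Nearly all of this was hoxb1b, a gene of the early zebrafish hindbrain.

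The hoxb1b level in siblings of hs:dkk1b was 60.7, 2.65 and 41.9 TPM at 5.5 hpf and 186, 132 and 192 TPM at 7.5 hpf. The other cross had 6.90, 15.8 and 6.81 TPM early and 165, 152 and 181 TPM late. Late libraries exceeded all early ones, and replicate 2 was far below its group in the early hs:dkk1b siblings. The log2 fold change was 2.24 ± 0.61 (SE) in siblings of hs:dkk1b (edgeR, adjusted p = 0.00926) and 3.90 ± 0.66 in siblings of hs:wnt8a (adjusted p = 0.000198). In a fit of only the groups compared, the rise in siblings of hs:dkk1b missed the threshold (adjusted p = 0.0572), and over 13 alternatives its adjusted p ran from 0.00106 to 0.0572. At 5.5 hpf hoxb1b alone was 53.5% ± 19.2 of all Hox TPM in siblings of hs:dkk1b and 63.0% ± 2.11 in siblings of hs:wnt8a. By 7.5 hpf its share was 38.8% ± 1.02 and 47.4% ± 6.06.

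Its paralog hoxb1a, which marks a single hindbrain segment later in development, stood at 1.28, 1.11 and 1.98 TPM in early and 17.1, 10.3 and 20.5 TPM in late siblings of hs:dkk1b. The early libraries were close to each other, replicate 2 included. Its mean in siblings of hs:wnt8a went from 1.43 ± 1.5 to 7.71 ± 2.59 TPM, with a log2 fold change of 2.26 ± 0.59. The hoxc1a gene, which has no mammalian counterpart in the HoxC cluster, stayed low, at 0.861 ± 0.380 and 0.978 ± 0.131 TPM in the late siblings. It reached 1 TPM only in the group mean of transgenic hs:dkk1b embryos at 7.5 hpf (1.07 ± 0.268 TPM).

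Paralog group 2 was low at both times. Its genes hoxa2b and hoxb2a, which act in the anterior hindbrain and the neural crest of the branchial arches, reached means of 0.860 ± 0.483 and 1.48 ± 0.671 TPM in late siblings of hs:dkk1b. The hoxb2a mean in late siblings of hs:wnt8a was 0.724 ± 0.377 TPM. Among siblings of hs:wnt8a, hoxa2b was 0 TPM in the 3 early libraries and 0.121, 0.203 and 0 TPM late. This was the only tested Hox gene without a called rise in that cross (log2 fold change 3.59 ± 1.58, adjusted p = 0.0819, from 5 late counts and 0 early ones), and it passed when replicate 3 of the late siblings was left out (adjusted p = 0.0396).

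Paralog groups 3 and 4, genes of the caudal hindbrain, were dominated by hoxc3a, a gene of the zebrafish hoxca cluster that mammals lack. The hoxc3a level was 2.16, 0.0366 and 2.04 TPM in early and 40.9, 23.3 and 41.6 TPM in late siblings of hs:dkk1b, and 0.171, 0.370 and 0.105 TPM in early and 17.8, 34.1 and 34.2 TPM in late siblings of hs:wnt8a. It was among the highest Hox genes after hoxb1b at 7.5 hpf, and its rise was 4.60 ± 0.60 and 6.81 ± 0.74 on the log2 scale. Its annotated span covers hoxc4a, hoxc5a, hoxc6a, hoxc8a and hoxc9a in the RefSeq annotation of GRCz12tu, and whether reads were assigned by strand is not given in the sources used here, so the division of reads among these genes is uncertain. The same holds for hoxb3a over hoxb4a, hoxb5a and hoxb6a, for hoxa3a over hoxa5a, for hoxd3a over hoxd4a, and for hoxb1b over hoxb5b and hoxb6b.

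The hoxb3a mean went from 0.968 ± 0.443 to 10.7 ± 2.82 TPM in siblings of hs:dkk1b and from 0.164 ± 0.153 to 8.57 ± 1.5 TPM in siblings of hs:wnt8a. For hoxa3a and hoxd3a the late means were 1.95 ± 0.879 and 3.65 ± 1.88 TPM in siblings of hs:dkk1b. Both were lower in the other cross, at 0.863 ± 0.426 and 1.42 ± 0.598 TPM. The hoxd genes were among those closest to silent at the early time. From 1 count over the early siblings of hs:dkk1b, hoxd3a went to 247 counts, a ratio of 209 with a 95% counting interval of 37.1 to 8281. In paralog group 4, hoxd4a had 0 counts early and 176 late in siblings of hs:dkk1b, at least 49.6-fold higher against a floor of 3 counts over the group. It was at least 19.0-fold higher in siblings of hs:wnt8a. The late means of hoxb4a were 6.40 ± 1.77 and 6.46 ± 1.98 TPM and those of hoxc4a 2.39 ± 0.544 and 2.55 ± 0.799 TPM, so these genes differed between the crosses by less than their spread. Such intervals and floors cover counting error only.

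Genes of paralog groups 5 to 8 pattern the trunk. In group 5 the late means in siblings of hs:dkk1b were 3.09 ± 1.11 TPM for hoxa5a, 1.91 ± 0.150 for hoxb5a, 7.80 ± 3.20 for hoxb5b and 3.45 ± 0.751 for hoxc5a. Those in siblings of hs:wnt8a were 1.61 ± 0.270, 1.53 ± 0.561, 5.79 ± 1.26 and 2.98 ± 0.0599 TPM. All 4 rose in both crosses, though the rise of hoxc5a in siblings of hs:dkk1b (log2 fold change 2.42 ± 0.70, adjusted p = 0.0140) did not pass without the early replicate 2 sibling library (adjusted p = 0.0559).

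Group 6 held a contrast among its members in early siblings of hs:dkk1b. The hoxc6b level was 0.117, 0.101 and 0 TPM in early and 17.2, 8.88 and 19.1 TPM in late siblings of hs:dkk1b. The hs:wnt8a cross had 0.0942, 0 and 0 TPM early and 3.24, 16.5 and 14.8 TPM late. Counts over the group went from 2 to 486 in the first cross, a ratio of 205 (95% counting interval 56.6 to 1701), and from 1 to 418 in the second, a ratio of 314 (56.0 to 12424). Its paralog hoxc6a was present already at 3.38 ± 2.80 TPM in early siblings of hs:dkk1b (4.41, 0.201 and 5.51 TPM) and reached a like level, 17.9 ± 1.46 TPM. In siblings of hs:wnt8a hoxc6a too was low early, at 0.374 ± 0.181 TPM on 6 counts, and reached 14.2 ± 2.97 TPM. The late means of hoxb6a and hoxb6b were 3.11 ± 1.02 and 7.83 ± 2.37 TPM in siblings of hs:dkk1b and 1.28 ± 0.142 and 2.87 ± 1.21 TPM in siblings of hs:wnt8a.

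The sole gene of group 7, hoxb7a, rose from 1.68, 0.387 and 2.08 TPM to 23.5, 20.2 and 26.4 TPM in siblings of hs:dkk1b. It rose in siblings of hs:wnt8a from 0.0903, 0.445 and 0.185 TPM to 12.1, 21.0 and 15.5 TPM. In group 8, hoxc8a was 5.78, 0.385 and 5.15 TPM in early and 37.1, 28.5 and 40.3 TPM in late siblings of hs:dkk1b. It was thus level with hoxc3a at 35.3 TPM as a late mean, and the early replicate 2 library was again the low one. The hoxb8a rise was the smallest in siblings of hs:dkk1b (2.09 ± 0.72, adjusted p = 0.0340). It was lost without each of 5 of the 6 sibling libraries and without both late replicate 1 libraries, with adjusted p values from 0.0520 to 0.121. The late means of hoxb8a and hoxb8b were 5.68 ± 0.510 and 4.48 ± 0.654 TPM in siblings of hs:dkk1b and 5.30 ± 0.599 and 2.54 ± 1.05 TPM in siblings of hs:wnt8a.

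Paralog groups 9 and 10, genes of the posterior trunk and tail, held some of the steepest rises. The hoxa9a level was 0.0962, 0 and 0 TPM in early and 11.3, 12.3 and 19.3 TPM in late siblings of hs:dkk1b. Siblings of hs:wnt8a had 0 TPM in all 3 early libraries and 4.45, 11.0 and 9.93 TPM late. Counts went from 1 to 563 in the first cross, a ratio of 476 (95% counting interval 85.1 to 18834), and from 0 to 375 in the second, at least 93.8-fold. The hoxd9a gene had 0 early counts in both crosses and was at least 38.9-fold higher in late siblings of hs:dkk1b and at least 9.01-fold higher in late siblings of hs:wnt8a.

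Within group 9 the clusters differed in their early level in siblings of hs:dkk1b. The hoxb9a level was 1.30, 0.177 and 1.16 TPM early and 17.2, 11.5 and 16.4 TPM late in siblings of hs:dkk1b, and 0, 0.163 and 0 TPM early and 11.1, 13.9 and 15.2 TPM late in siblings of hs:wnt8a. The hoxb9a and hoxc9a RNAs were thus present at 0.877 ± 0.610 and 0.897 ± 0.634 TPM in early siblings of hs:dkk1b, when hoxa9a and hoxd9a had 1 and 0 counts. In replicate 2 of that group hoxb9a and hoxc9a had only 3 and 2 counts. Early siblings of hs:wnt8a had 3 and 4 counts of them over the group, too few to tell the clusters apart. Late means of hoxa9b, hoxc9a and hoxd9a were 2.88 ± 1.30, 6.26 ± 1.30 and 4.58 ± 2.97 TPM in siblings of hs:dkk1b and 0.524 ± 0.195, 5.32 ± 0.879 and 1.05 ± 0.280 TPM in siblings of hs:wnt8a. In group 10, hoxb10a reached 10.5 ± 3.62 and 6.13 ± 0.971 TPM, hoxc10a 1.75 ± 0.457 and 0.967 ± 0.0443 TPM, and hoxd10a 0.854 ± 0.426 and 0.550 ± 0.290 TPM in the same order of crosses. The fourth gene of that group, hoxa10b, was not tested and had a highest group mean of 0.732 TPM.

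Paralog groups 11, 12 and 13 had no gene at 1 TPM except hoxb13a. None of their 14 genes was tested. Their summed level in late siblings of hs:dkk1b was 0.603 ± 0.0646, 0.272 ± 0.472 and 1.34 ± 0.328 TPM, together far under the 13.4 ± 4.05 TPM of group 10. The level therefore dropped between paralog groups 10 and 11 at this stage in both crosses, since the same sums in late siblings of hs:wnt8a were 0.168 ± 0.0712, 0.130 ± 0.0693 and 0.873 ± 0.719 TPM against 7.70 ± 1.05 TPM. The hoxb13a level was 0.751, 1.30 and 0.509 TPM in early and 0.478, 0.555 and 0.373 TPM in late siblings of hs:dkk1b. The other cross had 0.850, 1.20 and 0.623 TPM early and 0.894, 0.222 and 0.103 TPM late. The early and late values overlapped in both crosses, its highest group mean of 1.06 ± 0.224 TPM (n = 2) was in transgenic hs:wnt8a embryos at 5.5 hpf, and no group held more than 22 counts.

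By cluster, the late Hox RNA in siblings of hs:dkk1b was 43.3% from hoxbb, 23.6% from hoxca and 21.5% from hoxba, with 4.44% from hoxaa, 3.35% from hoxcb, 2.80% from hoxda and 1.06% from hoxab. In siblings of hs:wnt8a the shares were 50.6%, 22.4%, 19.2%, 3.08%, 3.16%, 1.25% and 0.299% in the same order. At 5.5 hpf hoxaa, hoxab, hoxcb and hoxda were each under 1% of the Hox total in siblings of hs:dkk1b, at 0.381%, 0.646%, 0.871% and 0.575%. In early siblings of hs:wnt8a they were 0.109%, 0.530%, 1.02% and 1.34%, so hoxab and hoxda were there above their late shares. Those early shares rest on sums of 0.0899 ± 0.0877 TPM for hoxab and 0.165 ± 0.115 TPM for hoxda. The only counts were of untested genes, hoxa10b (1), hoxa13b (2), hoxd11a (1) and hoxd12a (4), so this order of shares is uncertain. Shares are of summed TPM, which is scaled per length.

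The rise differed between the crosses in no Hox gene by edgeR's test of the difference, and 0% of all genes passed it. An unadjusted p under 0.05 was met by 1929 of all 19504 genes, in either direction. Of the 32 Hox genes, 8 had a larger rise in siblings of hs:wnt8a at that level, and none had a larger one in siblings of hs:dkk1b. The smallest p was that of hoxb9a (difference in log2 fold change 3.52 ± 0.98, adjusted p = 0.304), followed by hoxb3a (2.06 ± 0.64, adjusted p = 0.343), hoxc1a, hoxc6a and hoxb7a. DESeq2 called hoxb9a (3.64, adjusted p = 0.0475), where it called 33 of all genes above 0 and 35 below. At 5.5 hpf the summed Hox level of 2 of the 3 siblings of hs:dkk1b was above that of all siblings of hs:wnt8a. Without both early replicate 2 libraries of the hs:dkk1b cross, left out after their low Hox level had been seen, 6 genes were called: hoxb1b (2.21), hoxb3a (2.38), hoxb9a (4.00), hoxc3a (2.78), hoxc6a (3.14) and hoxc8a (3.15), with adjusted p values from 0.00361 to 0.0239. In that fit 165 of all 19380 genes were called with a difference above 0 and 108 below 0. Without early replicate 2 of the siblings of hs:wnt8a, hoxb3a was called (3.12, adjusted p = 0.0455), where 127 of all 19446 genes were above 0 and 84 below. The crosses also differed in heat shock temperature and duration and in the wnt8a reads of the siblings, and these cannot be told apart. Germ cell marker sums of early replicates 1 to 3 were 138, 303 and 135 CPM in siblings of hs:dkk1b. In siblings of hs:wnt8a they were 281, 161 and 289 CPM. Within each cross the early sibling libraries with lower germ cell sums had the higher Hox sums. The part of this in the difference between crosses was not tested.

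The hs:dkk1b comparison asked how reduced Wnt signalling altered the Hox genes at each time. At 5.5 hpf the summed Hox level was 27.4, 6.97 and 36.8 TPM in transgenic embryos, against 88.5, 8.33 and 70.0 TPM in siblings. The groups overlapped only through replicate 2. Most of the difference lay in hoxb1b, and without it the sums were 17.0 ± 10.6 and 20.5 ± 12.8 TPM. Transgenic embryos had 7.18, 1.80 and 11.1 TPM of hoxb1b, which was 11.8%, 67.9% and 26.5% of the sibling library with the same replicate number.

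In the fit without replicate numbers no Hox gene passed the threshold at 5.5 hpf, where 0.0513% of all genes did (10 genes). At an unadjusted p under 0.05 there was 1 Hox gene, among 277 of all 19504 genes. DESeq2 called 0 Hox genes, with 2 at an unadjusted p under 0.05, among 250 of all genes. That edgeR gene was hoxb1b (log2 fold change -2.37 ± 0.65, adjusted p = 1.00). Transgenic and sibling libraries of this cross deviated together by replicate number, and once replicate number was added as a block hoxb1b fell by 2.24 ± 0.33 on the log2 scale (adjusted p = 0.00644). It was the only Hox gene called with the block, where 0.246% of all genes passed. It was also called without early sibling replicate 2 (-2.91, adjusted p = 0.00351) and without both replicate 2 libraries (-2.47, adjusted p = 0.00343). Of all genes 1 was called higher and 24 lower in the former fit, and 1 and 22 in the latter. Over the 12 alternatives the log2 fold change of hoxb1b ran from -2.94 to -1.71 and the adjusted p from 0.00343 to 1.00.

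The other Hox genes gave small or imprecise values at 5.5 hpf. The next smallest p-values were those of hoxb5b (-1.46 ± 0.86), hoxa2b (-2.82 ± 1.66), hoxa9b (-2.83 ± 1.71) and hoxb9a (-0.92 ± 0.59), none past the threshold. For hoxa2b and hoxa9b the values rest on 2 sibling counts and 0 transgenic counts. In both groups 10 of the 32 genes had 3 counts or fewer, so their signs rest on almost no reads. The other 22 had a median of -0.28 with a floor of 3 counts over the group. Over all 32 genes, those 10 included, the median was -0.28, against 0.01 over all genes, and 24 lay below 0. That median was 0.016 without sibling replicate 1 (16 above 0 and 11 below), -0.017 without transgenic replicate 2, -0.10 without sibling replicate 3, -0.72 without sibling replicate 2 and -1.09 without transgenic replicate 3, so its sign rests on single libraries. Lower TPM in all 3 same-numbered pairs was found for 5 of 32 Hox genes (hoxb1b, hoxb3a, hoxb5b, hoxb9a and hoxc8a), against 14.5% of all genes, which is near the same share. Higher TPM in all 3 pairs was found for 0 of 32, against 11.7% of all genes. Hox genes with 0 TPM in both libraries of a pair, among them hoxd4a, hoxa5a and hoxa9a, could be neither lower nor higher in all 3. These counts of 32 are thus not directly comparable with the shares of all genes.

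**Figure D3:**
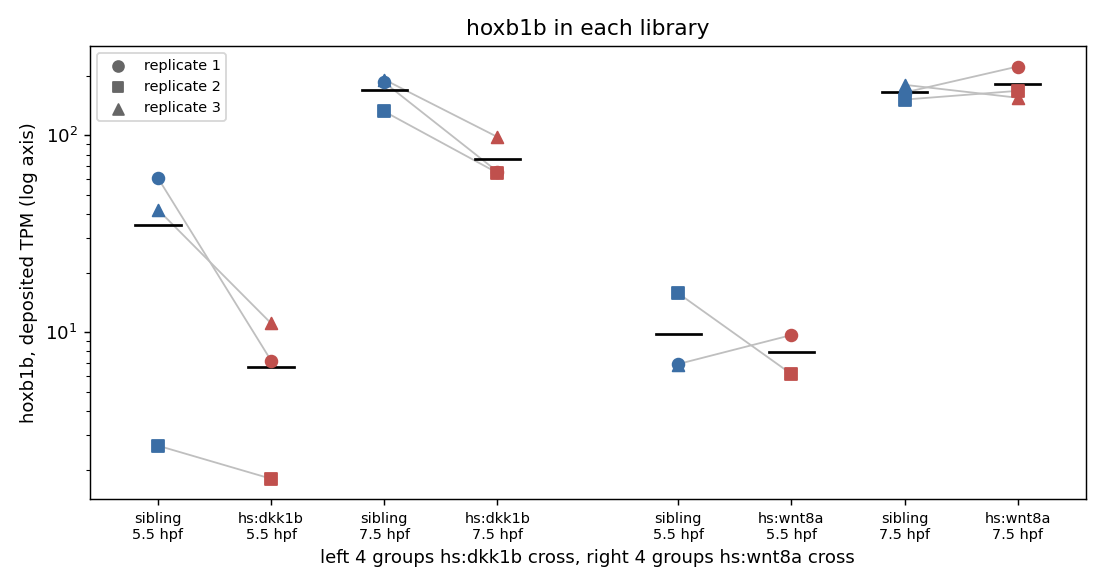
Deposited TPM of hoxb1b (log axis) in each library by cross, genotype and time, with grey lines joining libraries of the same replicate number, blue points for siblings, red points for transgenic embryos and black bars for group means. All 6 lines of the hs:dkk1b cross fall from sibling to transgenic, from 186, 132 and 192 TPM to 65.6, 64.6 and 98.3 TPM at 7.5 hpf, and those of the hs:wnt8a cross go either way.

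At 7.5 hpf hoxb1b was 65.6, 64.6 and 98.3 TPM in transgenic hs:dkk1b embryos, against 186, 132 and 192 TPM in siblings. The groups did not overlap, and each transgenic library held 35.2%, 48.8% and 51.1% of its same-numbered sibling. This was the only 1 of the 32 tested Hox genes lower without overlap, which is near the share of all genes, 2.93%. The log2 fold change was -1.19 ± 0.58 without the block (edgeR, adjusted p = 1.00) and -1.20 ± 0.24 with it (adjusted p = 0.0280). In the fit without the block 0 Hox genes passed, with 0 at an unadjusted p under 0.05, and 0.154% of all genes passed. DESeq2 also called 0, with 0 at an unadjusted p under 0.05. With the block 1 of 32 passed, where 0.749% of all genes did. Over 12 alternatives the value ran from -1.39 to -1.06 and the adjusted p from 0.0280 to 1.00.

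The share of hoxb1b in all Hox TPM was 23.1% ± 0.923 in transgenic embryos and 38.8% ± 1.02 in siblings at 7.5 hpf. Without hoxb1b the Hox sums were 252 ± 56.0 and 271 ± 62.3 TPM, a difference within the spread. At 5.5 hpf the shares were 27.4% ± 2.41 and 53.5% ± 19.2. Its paralog hoxb1a was 12.6, 4.83 and 17.6 TPM in transgenic embryos and 17.1, 10.3 and 20.5 TPM in siblings at 7.5 hpf, and these groups overlapped.

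Other Hox genes of the hs:dkk1b cross at 7.5 hpf had log2 fold changes from -0.74 (hoxd3a, ± 0.50) to 0.40 (hoxa9b, ± 0.55). The hoxd3a level was 2.29, 1.08 and 3.16 TPM in transgenic embryos and 5.20, 1.56 and 4.18 TPM in siblings, with a blocked value of -0.73 ± 0.27 (adjusted p = 0.453). After it came hoxb10a (-0.53 ± 0.42), hoxb5b (-0.48 ± 0.49) and hoxb6b (-0.39 ± 0.42), none past the threshold. The hoxb5b and hoxb6b genes lie in the hoxbb cluster with hoxb1b and overlap its annotated span. The median over the 32 genes was -0.19, against 0.01 over all genes. It was 0.023 without transgenic replicate 2, -0.024 without sibling replicate 3, -0.048 without sibling replicate 1, -0.0034 without both replicate 1 libraries, -0.32 without sibling replicate 2 and -0.34 without transgenic replicate 3, so its sign too rests on single libraries. In all 3 same-numbered pairs TPM was lower for 12 of 32 Hox genes (12.2% of all genes) and higher for 3 of 32, hoxb2a, hoxa9b and hoxc9a (16.8% of all genes). The 12 were hoxb1a, hoxb1b, hoxa3a, hoxd3a, hoxd4a, hoxb5b, hoxb6b, hoxb7a, hoxb8b, hoxa9a, hoxb10a and hoxd10a. Only hoxb1b of these was called in any fit, so for the other 11 the shared direction stands without a test.

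**Figure D4:**
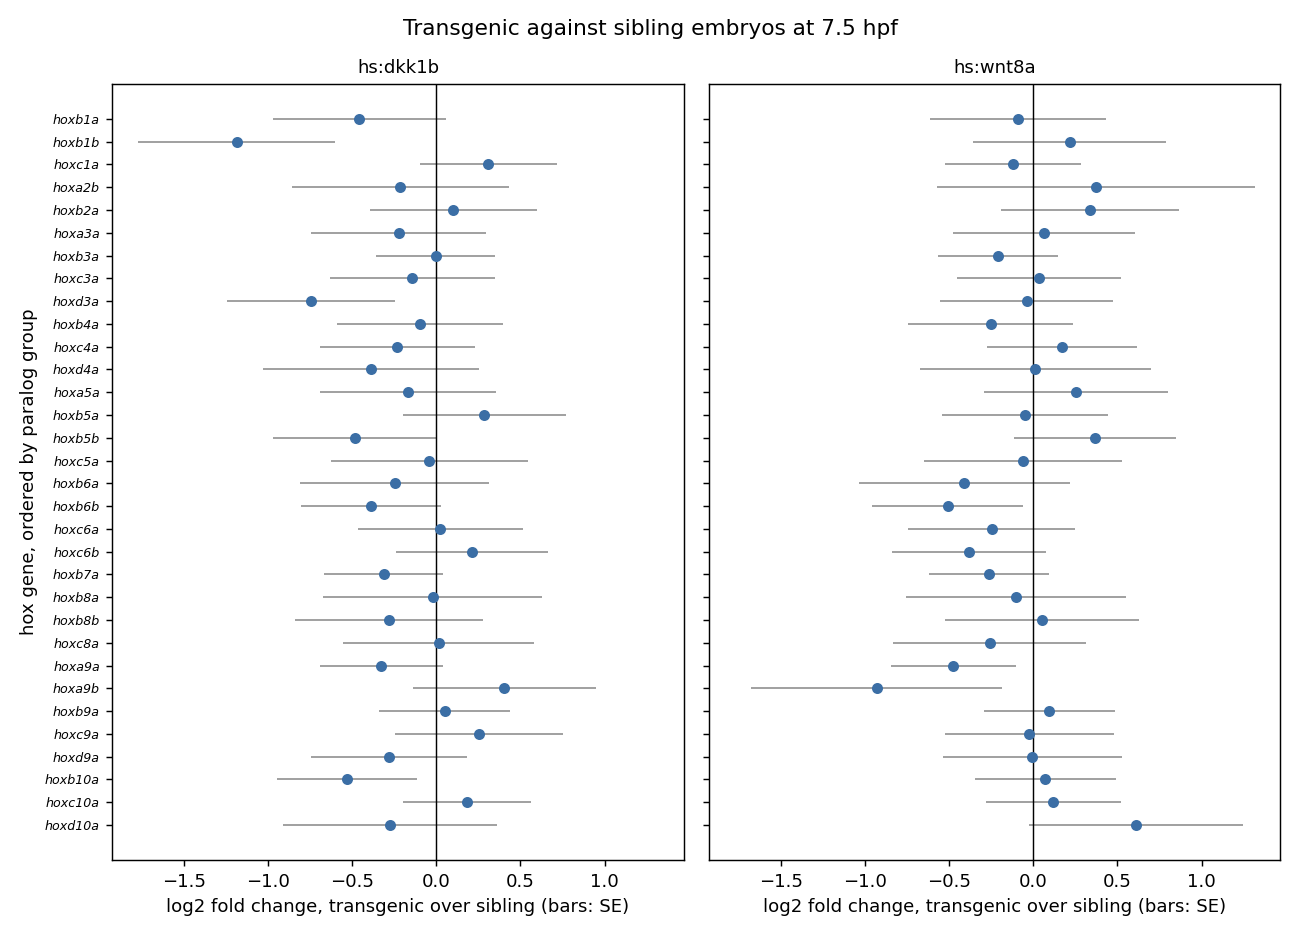
Fitted log2 fold change of transgenic over sibling embryos at 7.5 hpf (points, with standard errors as bars) for the 32 tested Hox genes in each cross, ordered by paralog group. In hs:dkk1b embryos hoxb1b lies furthest left at -1.19 and the others between -0.74 and 0.40, and in hs:wnt8a embryos the values lie between -0.93 (hoxa9b) and 0.61 (hoxd10a).

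Mesoderm markers (tbxta, tbx16, msgn1 and tbx6) were lower in the hs:dkk1b libraries. All 4 had counts throughout, and their sum was 615 to 1119 CPM in transgenic and 1092 to 1369 CPM in sibling hs:dkk1b embryos at 5.5 hpf, and 536 to 566 against 704 to 803 CPM at 7.5 hpf. These ranges overlapped at the early time and not at the late time. The 4 ectoderm markers summed to 810 to 860 CPM in transgenic and 771 to 825 CPM in sibling embryos at 7.5 hpf. The 3 yolk syncytial layer markers summed to 86.2 to 115 CPM in transgenic and 131 to 144 CPM in sibling embryos at 7.5 hpf, without overlap. At that time 2.93% of all single genes were lower without overlap in TPM. The part of such shifts in the hoxb1b values was not tested. Without both replicate 1 libraries at 7.5 hpf, those with high hsp70l, no Hox gene was called either.

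The hs:wnt8a comparison asked the converse question, with added Wnt ligand. The part in it of the wnt8a reads of the siblings was not tested. At 7.5 hpf hoxb1b was 224, 168 and 155 TPM in transgenic embryos and 165, 152 and 181 TPM in siblings. The groups overlapped, and the log2 fold change was 0.22 ± 0.57, with an interval of 2 standard errors on either side from -0.93 to 1.36. No Hox gene passed edgeR's threshold at 7.5 hpf, where 0.0974% of all genes did, and none had an unadjusted p under 0.05. DESeq2 called 0 and had 0 at an unadjusted p under 0.05. The smallest p-values were those of hoxa9a (-0.47 ± 0.37), hoxa9b (-0.93 ± 0.75), hoxb6b (-0.51 ± 0.45), hoxd10a (0.61 ± 0.64) and hoxc6b (-0.38 ± 0.46). The median over the 32 genes was -0.03 (-0.15 without sibling replicate 1 and 0.08 without transgenic replicate 2), and the Hox sum was 346 ± 43.6 TPM in transgenic and 353 ± 38.4 TPM in sibling embryos.

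Of the 32 Hox genes 1 was lower without overlap under hs:wnt8a at 7.5 hpf, against 3.98% of all genes, which is near the same share. This was hoxc8a, with 20.5, 16.6 and 19.7 TPM in transgenic embryos and 20.9, 26.1 and 24.8 TPM in siblings. The highest transgenic library and the lowest sibling library were almost equal. Lower TPM in all 3 same-numbered pairs was found for 4 genes (hoxb6a, hoxc6a, hoxc8a and hoxa9b), against 20.3% of all genes, and higher TPM for 0, against 7.47%.

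At 5.5 hpf hoxb1b was 9.68 and 6.13 TPM in transgenic hs:wnt8a embryos and 6.90, 15.8 and 6.81 TPM in siblings. The values overlapped, and the log2 fold change of -0.26 ± 0.74 changed sign without sibling replicate 2 (0.23) or transgenic replicate 2 (0.01). No Hox gene passed the threshold by edgeR or DESeq2, and 0% of all genes passed by edgeR. Over all 19504 genes 649 had an unadjusted p under 0.05 by edgeR and 626 by DESeq2. Each tool had 1 Hox gene at that level, which by edgeR was hoxb5b (1.70 ± 0.74, adjusted p = 1.00). The hoxb5b level was 1.11 and 1.32 TPM in transgenic embryos and 0.0873, 0.430 and 0.628 TPM in siblings, on 27 and 13 counts in all. It was 1 of 4 Hox genes higher without overlap, with hoxa2b, hoxd9a and hoxb10a, against 9.42% of all genes. The other 3 rest on 2 to 4 transgenic counts. Of the 32 genes 17 had 3 counts or fewer in both groups, so an effect on them was not detectable at this depth.

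Marker sums of other cell types also differed between the hs:wnt8a groups. At 5.5 hpf the sums in transgenic and sibling embryos were 1514 to 1651 against 1371 to 1484 CPM for the mesoderm markers, 313 to 341 against 277 to 308 CPM for the 3 endoderm markers and 238 to 250 against 181 to 224 CPM for the yolk syncytial layer markers. These 3 lists were higher in transgenic embryos without overlap, and the ectoderm markers were lower, at 840 to 881 against 892 to 940 CPM. The heat shock genes summed to 29057 to 29793 CPM in transgenic and 16560 to 26744 CPM in sibling embryos at that time, also without overlap. With 2 libraries against 3, such separation was common at 5.5 hpf. Of all single genes 9.42% were higher and 14.0% lower without overlap in TPM there. At 7.5 hpf the yolk syncytial layer sum was again higher without overlap, at 152 to 181 against 110 to 147 CPM. Of all single genes 1.46% were higher without overlap in TPM at that time. The part of these shifts in the Hox values was not tested.

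Set side by side, the log2 fold changes of hoxb1b were -2.37 and -1.19 under hs:dkk1b and -0.26 and 0.22 under hs:wnt8a, at 5.5 and 7.5 hpf. The effect of hs:wnt8a minus that of hs:dkk1b was 2.11 ± 0.97 at 5.5 hpf (unadjusted p = 0.0430, adjusted p = 1.00) and 1.40 ± 0.82 at 7.5 hpf (adjusted p = 1.00). With the replicate block these were 1.83 ± 0.52 (adjusted p = 0.151) and 1.40 ± 0.33 (adjusted p = 0.0585), though the hs:wnt8a libraries at 5.5 hpf shared only a number (r -0.068 and -0.087). Neither passed the threshold, and 0 Hox genes passed at either time, where 0.0308% and 0.205% of all genes did. An unadjusted p under 0.05 was met by 552 and 628 of all 19504 genes in edgeR and 541 and 640 in DESeq2. Among them were 5 and 0 Hox genes by edgeR and 3 and 0 by DESeq2, which called 0 at both. The 5 were hoxb5b (3.16 ± 1.14), hoxa2b (6.19 ± 2.43), hoxb1b, hoxa9a (5.38 ± 2.48) and hoxb10a (3.26 ± 1.54), and hoxa2b and hoxa9a had at most 2 counts in any of the 4 early groups. DESeq2 gave hoxb5b (unadjusted p = 0.00316) and hoxb10a (unadjusted p = 0.0319) no adjusted p at 5.5 hpf, so neither could be called. Most other Hox genes had no adjusted p there either.

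The effect of hs:dkk1b on hoxb1b at 7.5 hpf minus that at 5.5 hpf was 1.18 ± 0.86 (adjusted p = 1.00), so the smaller effect at the late time was not shown to differ from the early one. No Hox gene passed that test, and 0% of all genes did. For hs:wnt8a 0 Hox genes passed, against 0.00513% of all genes. At an unadjusted p under 0.05 edgeR had 0 Hox genes for hs:dkk1b and 1, hoxa9a (-3.85 ± 1.79), for hs:wnt8a, and DESeq2 called 0 and had 0 in both. Over all 19504 genes edgeR had 170 and 340 at that level. These contrasts and the onset share sibling libraries, so their values are given beside each other without a measure of likeness.

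Genes known to act upstream of Hox genes or with their proteins were read from a list of 45, of which 41 were tested. It includes cdx, meis, pbx and gbx genes, genes of the retinoic acid pathway, FGF ligands and Tcf/Lef factors. The list was made with earlier results of these data known, so its directions are no independent evidence. Between 5.5 and 7.5 hpf 15.6% of all genes rose and 15.4% fell in siblings of hs:dkk1b, and 21.8% and 18.4% in siblings of hs:wnt8a. Of the 41 list genes 19 rose and 3 fell in each cross. Among them were the caudal factors cdx1a (1.32 ± 0.35 and 1.58 ± 0.35, in siblings of hs:dkk1b and hs:wnt8a) and cdx4 (0.73 ± 0.21 and 0.77 ± 0.22), and the Hox cofactors meis2b (1.77 ± 0.38 and 3.28 ± 0.40) and meis3 (1.96 ± 0.41 and 2.88 ± 0.43). The retinaldehyde reductase gene dhrs3a, which retinoic acid induces, went from 0.187 ± 0.227 to 12.2 ± 3.59 CPM in siblings of hs:dkk1b. The retinoic acid synthesis gene aldh1a2 fell by 0.46 ± 0.14 and 0.56 ± 0.14 on the log2 scale. The list's median log2 fold change was 0.42 and 0.39, against 0.04 and 0.04 over all genes.

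Under hs:dkk1b at 5.5 hpf 1 gene of the list passed without the block, gbx1, a neural plate homeobox gene (-2.01 ± 0.34, adjusted p = 0.0248). With the block 7 fell and 0 rose: gbx1, cdx1a (-0.93 ± 0.11), cdx4 (-0.89 ± 0.10), meis2b (-1.72 ± 0.18), lef1, fgf24 and tcf7. Of all genes 0.0513% passed in either direction without the block and 0.246% with it. The cdx4 mean was 161 ± 41.0 CPM in transgenic and 305 ± 104 CPM in sibling embryos. At 7.5 hpf 3 fell without the block, lef1 (-1.22 ± 0.15), fgf24 (-1.49 ± 0.25) and irx7 (-0.89 ± 0.16). With the block 11 fell and 0 rose, and those that fell included gbx1 (-1.48 ± 0.17), meis2b (-1.10 ± 0.15), cdx4 (-1.07 ± 0.10), meis3 (-0.80 ± 0.10), cdx1a, fgf8a and aldh1a2. Of all genes 0.154% passed at 7.5 hpf in either direction without the block and 0.749% with it. At that time the cdx4 mean was 241 ± 24.6 CPM in transgenic and 508 ± 63.5 CPM in sibling embryos.

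Under hs:wnt8a no gene of the list passed without the block at either time. At 7.5 hpf same-numbered libraries deviated together, but replicates 2 and 3 did so across numbers too. The block, with which 0.385% of all genes passed, added lef1, a Wnt target and effector (0.47 ± 0.08). In the other direction it added fgf3 (-1.29 ± 0.17) and the retinoic acid degrading enzyme cyp26c1 (-2.98 ± 0.28). The cyp26c1 mean was 0.527 ± 0.263 CPM in transgenic and 4.19 ± 1.21 CPM in sibling embryos. The hs:wnt8a effect exceeded that of hs:dkk1b on lef1 at 7.5 hpf (1.69 ± 0.21, adjusted p = 0.000236), the only gene of the list past that test without the block. With the block 13 were higher and 5 lower in that difference, where 1.27% of all genes passed in either direction, and at 5.5 hpf 4 were higher and 1 lower, where 0.641% did. The hs:wnt8a libraries at 5.5 hpf shared only a number, so the blocked count at that time is weakly grounded. At 7.5 hpf the pairing of that cross was clear for replicate 1 only, which also limits the blocked count there.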

How the data were processed

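Whole-embryo RNA-seq of 23 libraries was read from the authors' deposited tables, 1 per library. They hold whole-number gene counts, TPM and RPKM. The deposited counts were used for all tests, the authors' TPM for levels, and the deposited RPKM only as an alternative to TPM in the number of genes reaching 1. The submitters' processing notes name edgeR and, as genome build, GRCz11; no aligner, counting tool or strand setting is given in the sources used here. A joint fit of all 8 groups was made in edgeR 4.0.16 (R 4.3.3): TMM scaling, filterByExpr, quasi-likelihood F test, Benjamini-Hochberg adjustment over 19504 genes, threshold 0.05. A standard error is the size of the log2 fold change over the root of its F statistic. Genes with 0 counts in a reference group were bounded with a floor of 3 counts over the group; ratios and exact 95% intervals use counts over TMM-scaled library sizes. CPM was computed from the counts on the same library sizes. The fit was tested on simulated data with less spread between libraries than these data and none shared by replicate number. Changes were planted only outside the genes of lowest counts. That check thus does not tell how sensitive the tests are for the Hox genes here.

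Replicate numbers come from the titles. Deviations from the group means of same-numbered transgenic and sibling libraries correlated at 0.476, 0.707 and 0.551 (hs:dkk1b, 5.5 hpf), 0.606, 0.525 and 0.465 (hs:dkk1b, 7.5 hpf) and 0.726, 0.307 and 0.509 (hs:wnt8a, 7.5 hpf), all over 0.1, so the numbers were taken to pair those libraries; siblings of hs:dkk1b across times gave 0.167, 0.214 and 0.311. Different-numbered pairs of hs:dkk1b reached at most 0.107, at 5.5 hpf. In hs:wnt8a at 7.5 hpf, sibling replicate 2 with transgenic replicate 3 gave 0.511, and sibling replicate 3 with transgenic replicate 2 gave 0.351. Both exceeded the 0.307 of the replicate 2 pair, so pairing by number was clear there for replicate 1 only. Replicates of a group differed by more than sampling noise (chi-square 2.88 to 48.3 per degree of freedom), so none was merged.

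The genes and lists were chosen with earlier results of these data known. Named with values were Hox genes reaching 1 TPM, those past the threshold in a comparison or its blocked fit, and the 5 tested genes of smallest p in each comparison; genes of the regulator list were named where past the threshold, and only some of those that changed between the times are given. Genes singled out beyond this were chosen after their values were seen. Alternatives were RLE size factors, no count filter, DESeq2 1.42.0, only the groups compared, the replicate block, leaving out each library, and leaving out pairs of libraries. Genes to which DESeq2 gave no adjusted p were counted as not called. All 48 names were in the RefSeq table of GRCz12tu, used only for which genes overlap. Some genes counted in these sets are not reported here by name. No sequences are shown.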

Additional observations from a re-analysis of the deposited data

How the results depend on the processing

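Counts of called Hox genes kept within 1.5 times of the reported value under RLE size factors, no filter and a fit of only the groups compared, in all comparisons. At 5.5 hpf, however, the last fit tested only 10 Hox genes under hs:dkk1b, 3 under hs:wnt8a and 12 for the difference of effects. Its 0 calls there say nothing of the other Hox genes. In the onsets it tested 29 and 25 and called 28 and 25 in siblings of hs:dkk1b and hs:wnt8a. Under hs:dkk1b the number called moved from 0 to 1 (hoxb1b) with the replicate block at 5.5 and at 7.5 hpf, and at 5.5 hpf also without both replicate 2 libraries (1). The difference in onset between crosses moved from 0 to 1 with DESeq2 and to 6 without both replicate 2 libraries of hs:dkk1b at 5.5 hpf, an alternative chosen after seeing the data. Over all genes the calls in the latter moved from 0 to 165 above 0 and 108 below. Leaving out each library in turn gave 30 to 33 genes reaching 1 TPM, 30 to 32 rising in siblings of hs:dkk1b, 31 to 32 in siblings of hs:wnt8a, 0 to 1 under hs:dkk1b at 5.5 hpf (1 without sibling replicate 2), 0 to 1 for the difference in onset (1 without early sibling replicate 2 of hs:wnt8a), and 0 in all other comparisons. The number reaching 1 TPM was 31, and 27 with every library of a group at 1 TPM, 35 at a threshold of 0.5 TPM and 24 on RPKM. Without the filter hoxa10b also rose in siblings of hs:dkk1b (adjusted p = 0.0337). The sign of hoxb1b under hs:wnt8a at 5.5 hpf (-0.26) turned to 0.23 without sibling replicate 2 and 0.01 without transgenic replicate 2 (range -0.62 to 0.23 over single leave-outs), and its time difference in that line (0.48) to -0.0081 without the former (range -0.0081 to 0.83). Same-numbered libraries of hs:wnt8a at 5.5 hpf (2 pairs, r -0.068 and -0.087) and its siblings across times (-0.300, -0.256 and 0.175) shared only a number; the block called 0 Hox genes in the former and 31 in the latter, as without it. Among the genes of the regulator list it added cyp26a1 (-1.22 ± 0.18) under hs:wnt8a at 5.5 hpf. The block changed no other Hox call. The cause of these moves was not tested. Early Hox values rest on few reads, 91 to 849 Hox counts per library at 5.5 hpf against 3520 to 6697 at 7.5 hpf.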
